A study of Homo sapiens with 18 samples.

Results

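The genes described here are 10 targets of MLL fusion proteins that lie outside the HOX, TALE and MEF2 families: ZNF521, DACH1, EYA1, TCF4, SATB1, IGF2BP2, CPEB2, SENP6, LAMP5 and TMEM255A. They were taken by name from a table of 58037 Ensembl gene IDs, and each symbol matched 1 ID. Total RNA of 3 human acute myeloid leukemia (AML) cell lines was sequenced after 16 h of treatment, in 18 libraries of 8 groups. MOLM13 cells, which carry the MLL-AF9 fusion, received 500 nM VTP50469, 500 nM OTX015, 500 nM of each together, or neither (control), with 2 libraries per group. MV4-11 cells, which carry an MLL rearrangement, received 1000 nM VTP50469 or none, with 2 libraries per group. OCI-AML3 cells, which have mutant NPM1 and no MLL fusion, received 500 nM VTP50469 or none, with 3 libraries per group. VTP50469, named SNDX-50469 in the study, is a Menin inhibitor, and OTX015 is an inhibitor of the BET bromodomain proteins. Each line stands for 1 leukemia in culture, MV4-11 grew in another medium than the other lines, and its dose of VTP50469 was higher.

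Menin tethers the amino-terminal part of MLL (KMT2A), which all MLL fusion proteins keep, to chromatin at its target genes, and a Menin inhibitor blocks this contact. Fusion partners such as AF9 bring in the machinery of transcription elongation and DOT1L, a histone H3 methyltransferase, so that target genes stay highly transcribed. BET proteins bind acetylated histones at enhancers and promoters and help to release paused RNA polymerase II, a step that OTX015 inhibits.

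Library totals were 19320216 to 23684811 counts in MOLM13, 20730486 to 30090830 in MV4-11 and 49881047 to 59711884 in OCI-AML3, so at an equal level a gene carries the least counting error in OCI-AML3. Levels are in CPM, counts divided by the library total and scaled by TMM factors within a line unless stated otherwise. The words rose and fell are kept for genes that changed by at least 0.32 on the log2 scale, the fold limit, and had a Benjamini-Hochberg adjusted p under 0.05 over all genes of a fit (edgeR, quasi-likelihood). All 7 listed myeloid markers (PTPRC, CD33, SPI1, CEBPA, LYZ, MPO and CSF1R) were above 1 CPM in each line, with a summed level of 774 CPM or more in every library, against at most 9.86 CPM for 5 lymphoid markers. The mitochondrial genome gave 10.3% of counts in MV4-11 control replicate 1, against at most 6.68% in the other MV4-11 libraries, and the part of this in the MV4-11 results was not tested beyond leaving that library out. The study calls the MOLM13 and OCI-AML3 samples biologic replicates. For MV4-11 this is not stated in the sources used here, so the spread behind those p-values may be technical. Variation between replicate libraries beyond counting error (biological coefficient of variation, edgeR) was nonetheless largest in MV4-11, at 13.2%. It was 3.155% for OCI-AML3 and 3.06% for MOLM13, so small p-values in these lines rest on a narrow spread. How much of the spread in any line is technical was not tested. The MV4-11 libraries are numbered 1 and 2 in their titles and 2 and 3 in their descriptions, and the titles' numbers are used here. In bulk RNA, fewer cells that express a gene and less of its RNA per cell cannot be told apart.

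Treatment with VTP50469 lowered 5 of the 10 genes in all 3 lines: SATB1, IGF2BP2, CPEB2, LAMP5 and TMEM255A. SENP6, DACH1 and ZNF521 fell in MOLM13, TCF4 passed the test in none of the lines, and EYA1 was too low to test. In MOLM13, 8 of 9 tested members fell and 0 rose, where 5.24% of all 14360 tested genes fell and 8.06% rose. In MV4-11, 5 of 7 tested members fell and 0 rose, where 9.34% of 15486 tested genes fell and 11.4% rose. In OCI-AML3 5 of 8 fell and 0 rose, where 4.53% of 16611 tested genes fell and 8.58% rose. Of 13087 genes tested in all 3 lines, 64 fell in each of them, which is 0.489%, and of the 7 members tested in all 3 lines 5 did so. The members were chosen with earlier results of these data known, so their shares beside those of all genes are descriptions, not independent evidence. The median log2 fold change of the tested members was -0.93 in MOLM13, -1.49 in MV4-11 and -0.76 in OCI-AML3, whereas the median over all tested genes was at most 0.0082 in each line. With so few libraries, groups that do not overlap are common: 66.3% of all tested genes had none in MOLM13, 60.8% in MV4-11 and 48.7% in OCI-AML3. The members that passed the filter on low counts are not all 10, since EYA1 failed it in every line, DACH1 in MV4-11 and ZNF521 in MV4-11 and OCI-AML3.

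**Figure D1:**
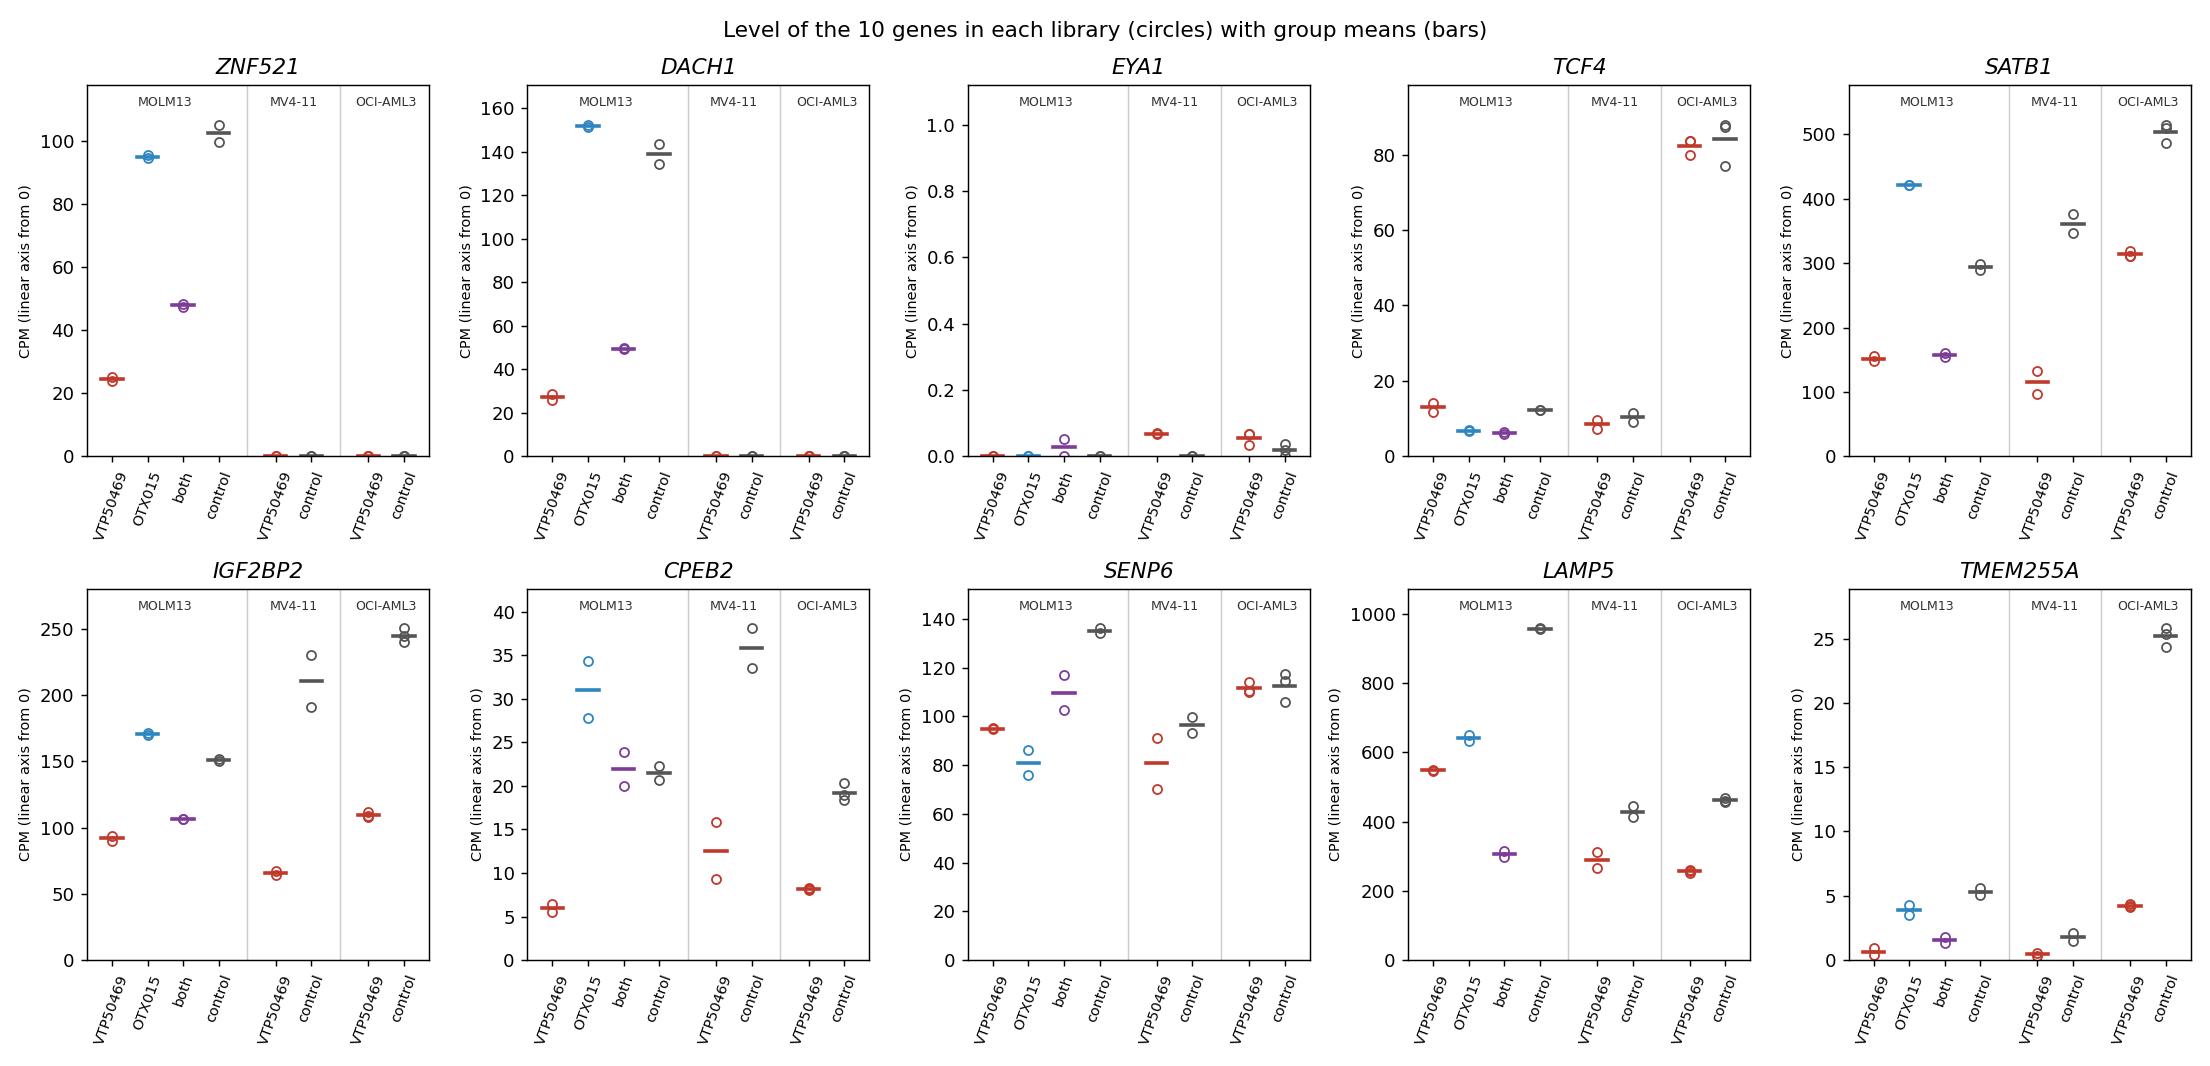
Level of each of the 10 genes (CPM scaled over all 18 libraries, linear axes from 0) in every library (circles) with group means (bars), by line and treatment. VTP50469 libraries lie below the control libraries of their line for SATB1, IGF2BP2, CPEB2, LAMP5 and TMEM255A, whereas ZNF521 and DACH1 show a level above 1 CPM in MOLM13 only and EYA1 in no library.

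**Figure D2:**
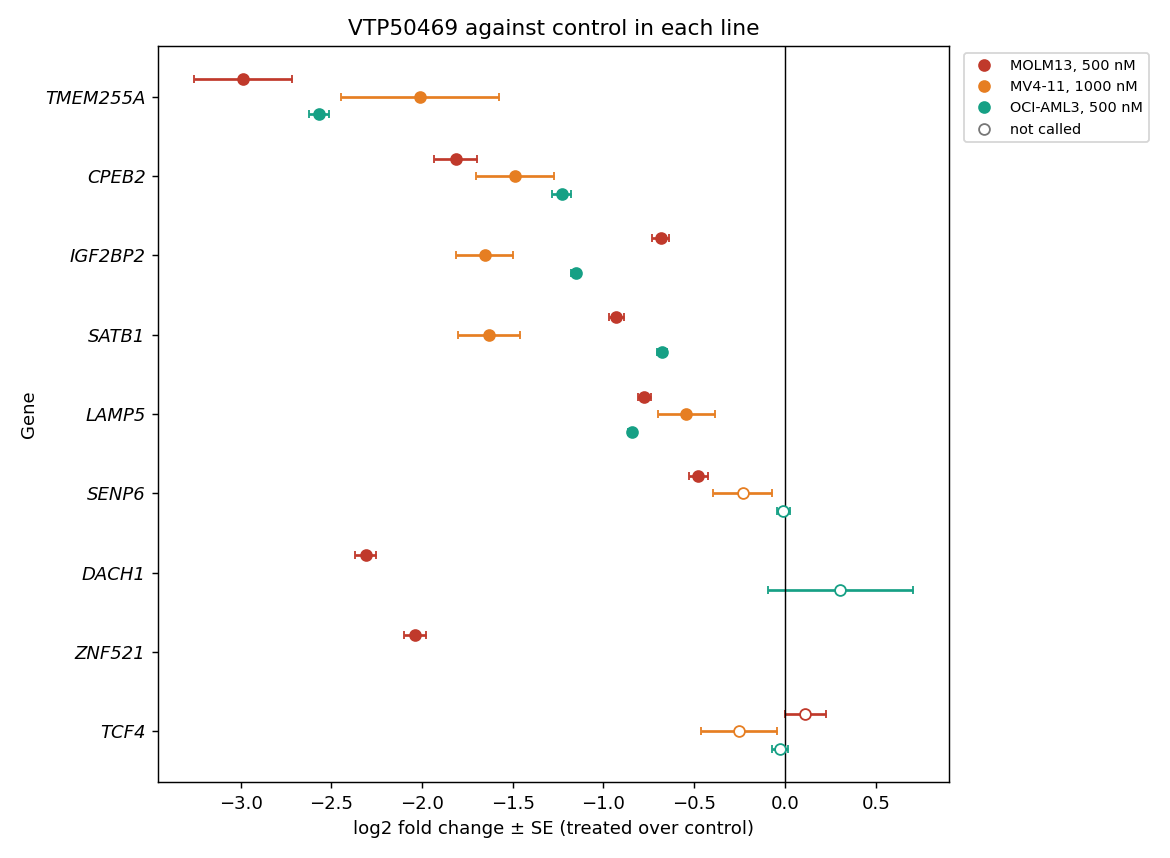
Log2 fold change (± SE) of 9 genes under VTP50469 against control in MOLM13 and OCI-AML3 (500 nM) and MV4-11 (1000 nM). Filled points passed the test and open points did not. TMEM255A had the lowest value of the 9 genes in each line, and TCF4 did not pass in any of them.

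The largest fall within the group was that of TMEM255A (GRCh38, chromosome X, 120251433 to 120311461), which encodes a transmembrane protein. In OCI-AML3 its level was 4.68, 4.48 and 4.34 CPM with VTP50469, against 25.8, 27.3 and 26.9 CPM in the controls. The 3 treated libraries lay far below all controls, with a log2 fold change of -2.57 ± 0.05 (SE, edgeR adjusted p = 1.32e-12), the second lowest of the 16611 genes tested in that line. In MOLM13 the gene was weakly expressed, at 20 and 9 counts (0.880 and 0.381 CPM) with VTP50469, against 109 and 106 counts (5.25 and 4.76 CPM) in the controls. These groups did not overlap, and the log2 fold change was -2.99 ± 0.27 (edgeR adjusted p = 5.28e-14), at rank 9 from the lowest of 14360 genes. In MV4-11 it had 9 and 17 counts with VTP50469, against 30 and 65 counts in the controls, and fell by 2.01 ± 0.44 on the log2 scale (edgeR adjusted p = 0.00355). Without VTP50469 replicate 1 the MV4-11 value was -1.67 and no longer passed (edgeR adjusted p = 0.0636). The 3′ end of TMEM255A overlaps ZBTB33, a gene for a methyl-CpG binding zinc finger protein, in the RefSeq annotation. ZBTB33 had a log2 fold change of -0.61 in MOLM13, -1.30 in MV4-11 and -0.32 in OCI-AML3, and since the sources used here name no strand setting for the counting, reads of both genes cannot be told apart where they overlap.

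CPEB2 (chromosome 4, 15002481 to 15070151) encodes a protein that binds cytoplasmic polyadenylation elements of mRNAs and so adjusts their translation. Its level was 6.12 and 5.33 CPM with VTP50469, against 19.5 and 20.8 CPM in the controls, in MOLM13. In OCI-AML3 it was 8.73, 8.59 and 8.77 CPM with VTP50469, against 19.5, 20.0 and 21.5 CPM in the controls, and in MV4-11 it was 9.49 and 16.4 CPM, against 33.6 and 39.0 CPM. Treated and control libraries were apart in each line, though the treated MV4-11 pair differed among itself by more than any other pair of treated libraries of this gene. The log2 fold changes were -1.81 ± 0.12 in MOLM13 (edgeR adjusted p = 4.7e-20), -1.23 ± 0.05 in OCI-AML3 (1.26e-09) and -1.49 ± 0.22 in MV4-11 (0.000141). Among the related genes, CPEB3 and CPEB4 passed in none of the lines with VTP50469, with log2 fold changes of 0.20 and 0.28 in OCI-AML3, 0.19 and 0.08 in MOLM13 and 0.06 and -0.38 in MV4-11. PARN and TENT2, enzymes that shorten and lengthen poly(A) tails, likewise passed in none of the lines.

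IGF2BP2 (chromosome 3, 185643130 to 185825042) encodes an RNA-binding protein that recognizes methylated adenosine in mRNAs and favors their stability. Its level was 65.9 and 69.5 CPM with VTP50469, against 231 and 196 CPM in the controls, in MV4-11. In OCI-AML3 it was 116, 115 and 119 CPM, against 255, 259 and 266 CPM, and in MOLM13 89.3 and 86.7 CPM, against 141 and 142 CPM. The groups did not overlap in any line, and the fall was 3.15-fold in MV4-11, 2.23-fold in OCI-AML3 and 1.61-fold in MOLM13 (log2 -1.65 ± 0.16, -1.15 ± 0.03 and -0.69 ± 0.05, largest edgeR adjusted p = 2.56e-06). Of its paralogs, IGF2BP3 fell in OCI-AML3 (-0.45 ± 0.05) and did not pass in MOLM13 (-0.20 ± 0.09). IGF2, the growth factor whose mRNA gave the family its name, had 204, 179 and 190 counts with VTP50469, against 2, 2 and 4 counts in the controls, in OCI-AML3 (log2 6.02 ± 0.22, edgeR adjusted p = 2.95e-10). It had 0 counts in all 12 MOLM13 and MV4-11 libraries.

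SATB1 (chromosome 3, 18345377 to 18445592) encodes a nuclear protein that binds AT-rich DNA and organizes chromatin loops in hematopoietic cells. It had 99.8 and 136 CPM with VTP50469, against 377 and 356 CPM in the controls, in MV4-11. In MOLM13 it had 148 and 142 CPM, against 273 and 279 CPM, and in OCI-AML3 331, 332 and 338 CPM, against 516, 545 and 541 CPM. No treated library reached a control of its line, and the fall was steepest in MV4-11 (log2 -1.63 ± 0.17), followed by MOLM13 (-0.93 ± 0.04) and OCI-AML3 (-0.68 ± 0.03), with edgeR adjusted p of 5.99e-06, 6.86e-28 and 4.16e-10. The antisense transcript SATB1-AS1 gave 61 to 649 counts per library, against 2817 to 31702 counts of SATB1, and its log2 fold changes were -0.60, -1.27 and -0.57 in MOLM13, MV4-11 and OCI-AML3. Reads of the pair cannot be told apart without the strand setting.

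LAMP5 (chromosome 20, 9514590 to 9530524), a member of the lysosome-associated membrane protein family, had the highest level per kilobase of exon among the 10 genes in every group. This was 268 CPM per kb with VTP50469 and 468 CPM per kb in the control in MOLM13, on the scale of all 18 libraries, and next to it came IGF2BP2 with 17.2 and 28.3 CPM per kb. LAMP5 had 524 and 526 CPM with VTP50469, against 901 and 893 CPM in the controls, in MOLM13. In OCI-AML3 it had 277, 269 and 272 CPM, against 495, 486 and 486 CPM, and in MV4-11 319 and 276 CPM, against 445 and 422 CPM. The groups were apart in each line. The fall was -0.77 ± 0.04 in MOLM13 and -0.84 ± 0.02 in OCI-AML3 on the log2 scale (edgeR adjusted p = 1.35e-26 and 1.66e-11), but -0.54 ± 0.16 in MV4-11 (edgeR adjusted p = 0.021) did not pass without control replicate 1 (adjusted p = 0.1) or without VTP50469 replicate 2 (adjusted p = 0.0997). The counts of LAMP5-AS1, which overlaps LAMP5, fell too, by 0.54 ± 0.10, 1.17 ± 0.19 and 0.85 ± 0.21 in MOLM13, MV4-11 and OCI-AML3. Without the strand setting, reads of LAMP5 and LAMP5-AS1 cannot be told apart where they overlap. UNC93B1, a chaperone that carries Toll-like receptors to the lysosome, fell in OCI-AML3 (-0.42 ± 0.04) and not in MOLM13 (-0.10 ± 0.04) or MV4-11 (-0.06 ± 0.16). TLR7, a receptor it carries, rose in OCI-AML3 (1.75 ± 0.24) and MV4-11 (1.40 ± 0.28).

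The starts of these genes differ in their content of CG dinucleotides. The CXXC domain of MLL, kept in the fusions, binds DNA with unmethylated CpG. Whether CG content bears on the response of these genes was not tested. RefSeq promoter entries (GRCh38.p14) were found for 8 of the 10 genes, and 5 genes had a single entry. The 250 bases before the start of transcription are shown for the 3 of these that fell in all 3 lines, 5′ to 3′ on the strand of the gene, with every CG in capitals, which reads the same on both strands.
CPEB2 (chr4:15002231-15002480, plus strand): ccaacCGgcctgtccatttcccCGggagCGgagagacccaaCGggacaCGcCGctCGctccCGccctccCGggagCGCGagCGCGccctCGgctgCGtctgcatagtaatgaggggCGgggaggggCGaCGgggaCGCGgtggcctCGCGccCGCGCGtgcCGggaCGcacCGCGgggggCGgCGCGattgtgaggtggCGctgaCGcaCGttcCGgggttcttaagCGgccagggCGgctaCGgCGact
LAMP5 (chr20:9514340-9514589, plus strand): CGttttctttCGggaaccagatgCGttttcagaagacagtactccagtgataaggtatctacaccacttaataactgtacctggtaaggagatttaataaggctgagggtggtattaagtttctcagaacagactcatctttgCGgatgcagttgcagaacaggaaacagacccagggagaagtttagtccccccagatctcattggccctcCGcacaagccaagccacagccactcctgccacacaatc
TMEM255A (chrX:120311462-120311711, minus strand): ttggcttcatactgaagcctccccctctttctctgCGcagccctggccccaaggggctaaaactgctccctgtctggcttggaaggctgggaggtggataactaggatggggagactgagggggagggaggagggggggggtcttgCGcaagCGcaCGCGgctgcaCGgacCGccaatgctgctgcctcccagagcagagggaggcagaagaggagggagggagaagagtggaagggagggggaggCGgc
The CPEB2 window held 40 CG, a number that 2.16% of 35116 promoters of this length reach, while LAMP5 held 5 and TMEM255A 8, below the median of 11 over all promoters. SENP6 held 32, which 9.52% of promoters reach, and DACH1 12. The motif TGACAG, bound by MEIS1, and TGATTTAT, bound by HOX and PBX proteins together, were searched on both strands and matched 0 times in these 5 windows, where 13% and 0.752% of all promoters held a match.

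SENP6, DACH1 and ZNF521 fell in MOLM13, and in the other lines they did not pass or were too low to test. SENP6 (chromosome 6, 75601880 to 75718281) encodes a protease that trims SUMO chains from proteins. It had 90.7 and 91.4 CPM with VTP50469, against 128 and 125 CPM in the controls, in MOLM13, a small change without overlap (log2 -0.48 ± 0.05, edgeR adjusted p = 3.9e-11). In OCI-AML3 its levels of 117, 122 and 117 CPM with VTP50469, against 112, 124 and 122 CPM in the controls, overlapped, and the log2 fold change of -0.01 had a 95% interval from -0.09 to 0.07. In MV4-11 the value was -0.23 ± 0.16 (edgeR adjusted p = 0.335), with a 95% interval from -0.57 to 0.11. Of 10 other genes of the SUMO cycle, 0 passed in MOLM13 or OCI-AML3 in edgeR. SUMO3 and UBA2, a ubiquitin-like modifier and a subunit of its activating enzyme, fell in MV4-11 (-0.55 ± 0.15 and -0.46 ± 0.15), where 9.34% of all tested genes fell.

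DACH1 (chromosome 13, 71437966 to 71867204) encodes a nuclear cofactor of the Dachshund family, which acts with eyes absent and sine oculis proteins in fly eye development. In MOLM13 it had 27.5 and 25.1 CPM with VTP50469, against 127 and 134 CPM in the controls, with no overlap and a fall of 4.96-fold (log2 -2.31 ± 0.06, edgeR adjusted p = 2e-41, rank 19 from the lowest). ZNF521 (chromosome 18, 25061924 to 25352166), a zinc finger cofactor of hematopoietic progenitors that recruits the NuRD complex, had 23.8 and 22.9 CPM with VTP50469, against 93.7 and 98.1 CPM in the controls, in the same line. It fell 4.11-fold (log2 -2.04 ± 0.06, edgeR adjusted p = 2e-37, rank 27 from the lowest). Of 10 NuRD subunits 1 rose and 0 fell in MOLM13 with VTP50469, where 8.06% of all tested genes rose and 5.24% fell. In the other lines both genes lay near 0, with 0 to 2 counts in each MV4-11 library and, in OCI-AML3, 7 to 19 counts of DACH1 and 1 to 6 of ZNF521. Against MV4-11 controls with 0 counts, and with a floor of 3 counts per library, DACH1 was at least 888-fold and ZNF521 at least 658-fold higher in MOLM13 controls. Against OCI-AML3 controls, where 29 and 5 counts were found in all, the ratios were 800 (95% counting interval 556 to 1195) for DACH1 and 3413 (1461 to 10520) for ZNF521. These intervals cover counting error only. DACH1 did not pass in OCI-AML3 with VTP50469 (log2 0.31 ± 0.40, edgeR adjusted p = 0.595), with a 95% interval from -0.56 to 1.17 at these low counts.

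EYA1 encodes a coactivator and phosphatase that binds sine oculis homeobox proteins. It had 1 count in the 8 MOLM13 libraries together, 4 in the 4 MV4-11 libraries and 13 in the 6 OCI-AML3 libraries, and no library had more than 4. At this depth no difference between groups was detectable. Of 4 sine oculis homeobox genes listed as partners, SIX5 was the 1 that could be tested in MOLM13, and it did not pass with VTP50469 (log2 -0.37 ± 0.30). In OCI-AML3 SIX5 rose (0.55 ± 0.10) and SIX2 fell (-0.71 ± 0.20).

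TCF4 (chromosome 18, 55222185 to 55635957) encodes an E protein, a basic helix-loop-helix factor that directs plasmacytoid dendritic cell fate, and is not the Wnt factor once known by the same name. In MOLM13 it had 13.4 and 11.4 CPM with VTP50469, against 11.5 and 11.4 CPM in the controls. In OCI-AML3 it had 84.8, 88.9 and 88.7 CPM, against 81.6, 92.5 and 93.3 CPM, and in MV4-11 7.51 and 9.92 CPM, against 11.4 and 9.43 CPM. Treated and control libraries overlapped in each line, and the 95% intervals of the log2 fold change ran from -0.11 to 0.34 in MOLM13, from -0.12 to 0.07 in OCI-AML3 and from -0.69 to 0.19 in MV4-11. Of the genes for ID proteins, which bind E proteins and keep them off DNA, all 3 of ID1, ID2 and ID3 rose in MV4-11 (1.94 ± 0.40, 1.32 ± 0.17 and 2.68 ± 0.58), ID2 and ID3 in OCI-AML3 (0.40 ± 0.03 and 0.83 ± 0.13) and ID3 in MOLM13 (1.84 ± 0.31), where ID1 and ID2 were at -0.20 ± 0.20 and -0.27 ± 0.08 and did not pass. The 4 plasmacytoid dendritic cell markers CLEC4C, LILRA4, SPIB and PTCRA summed to at most 4.86 CPM in any library.

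The size of the VTP50469 response was compared between lines in a fit of all 18 libraries. These comparisons share the treated and control libraries of a line, and MV4-11 cells had the higher dose, so line and dose cannot be told apart there. Between MV4-11 and MOLM13, 2 of 9 members differed, both with a deeper fall in MV4-11, and 20.6% of 17597 genes differed in either direction. They were IGF2BP2 (difference of log2 fold changes -0.96 ± 0.10, edgeR adjusted p = 1.69e-06) and SATB1 (-0.70 ± 0.13, adjusted p = 0.000627). CPEB2, LAMP5 and TMEM255A did not pass, with 95% intervals from -0.18 to 0.85, from 0.05 to 0.43 and from 0.01 to 1.92. Between OCI-AML3 and MOLM13, at the same dose, 4 of 9 members differed, where 4.1% of all genes did, but 2 of the 4 lay near 0 in OCI-AML3. IGF2BP2 fell further in OCI-AML3 (-0.44 ± 0.09, adjusted p = 0.00408), and SENP6 did not share the fall seen in MOLM13 (0.50 ± 0.12, adjusted p = 0.0197). The SENP6 difference did not pass without scaling factors (adjusted p = 0.055), when any MOLM13 control or VTP50469 library was left out, or without OCI-AML3 control replicate 1 or VTP50469 replicate 2 (largest adjusted p = 0.086). The other differences were those of DACH1 and ZNF521, which rest on the counts near 0 in OCI-AML3. Both were above 1 CPM in MOLM13 only, and a gene near 0 cannot show a fall. These 2 calls were thus settled beforehand and do not compare responses. DACH1 and ZNF521 are also among the 9 members compared with MV4-11, where they lay near 0 as well. Between OCI-AML3 and MV4-11, where 23.8% of all genes differed, 2 of 9 members did, SATB1 (0.97 ± 0.12) and IGF2BP2 (0.52 ± 0.09), both with the shallower fall in OCI-AML3. The counts against MV4-11 rest on its treated pair: without VTP50469 replicate 1, 5 members differed between MV4-11 and MOLM13, and without replicate 2 the counts were 4 against MOLM13 and 6 between OCI-AML3 and MV4-11.

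Untreated lines differed in several of these genes, as did 64.2% of all genes between MOLM13 and OCI-AML3, 67.4% between MV4-11 and OCI-AML3 and 63.5% between MOLM13 and MV4-11. TCF4 averaged 12.2 ± 0.01 CPM in MOLM13, 10.3 ± 1.55 CPM in MV4-11 (SD, n = 2 each) and 84.1 ± 6.22 CPM in OCI-AML3 (n = 3), on the scale of all 18 libraries. It was lower in MOLM13 than in OCI-AML3 by a log2 difference of -2.78 ± 0.11 (edgeR adjusted p = 4.74e-15), and the difference between MOLM13 and MV4-11 did not pass (0.26 ± 0.13, adjusted p = 0.0766). It did with limma-voom (0.48, adjusted p = 0.00919) and without MV4-11 control replicate 1 (0.41, edgeR adjusted p = 0.0185). TMEM255A averaged 5.33 ± 0.34 CPM in MOLM13, 1.79 ± 0.39 CPM in MV4-11 and 25.2 ± 0.75 CPM in OCI-AML3, and the 3 lines differed from each other (largest edgeR adjusted p = 1.14e-06). LAMP5 was highest in MOLM13, at a mean of 956 CPM, against 428 ± 22.5 CPM in MV4-11 and 461 ± 5.07 CPM in OCI-AML3, and the last pair did not differ (-0.11 ± 0.06, adjusted p = 0.103). SATB1 and IGF2BP2 were lower in MOLM13 than in OCI-AML3 (-0.78 ± 0.08 and -0.70 ± 0.06), and CPEB2 was lower in MOLM13 than in MV4-11 (-0.74 ± 0.15).

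In MOLM13 the agents were also compared alone and together. OTX015 alone gave a mixed pattern: of 9 tested members 2 rose and 3 fell, while 23.5% of all genes rose and 24.7% fell, so the members' share lies near that of all genes. SATB1 had 404 and 401 CPM with OTX015, against 273 and 279 CPM in the controls, above them in both libraries (log2 0.54 ± 0.04, edgeR adjusted p = 5.04e-19). CPEB2 had 26.7 and 32.7 CPM with OTX015, against 19.5 and 20.8 CPM, and rose by 0.56 ± 0.09. The genes that fell were TCF4, with 6.50 and 6.55 CPM against 11.5 and 11.4 CPM in the controls (-0.81 ± 0.13), SENP6 (-0.71 ± 0.05) and LAMP5 (-0.55 ± 0.04). TCF4 thus fell with the BET inhibitor in the line where it did not pass with the Menin inhibitor. ZNF521 (-0.08 ± 0.05, adjusted p = 0.165) and TMEM255A (-0.42 ± 0.19, adjusted p = 0.0529) did not pass, TMEM255A narrowly, since it passed with DESeq2 size factors (edgeR adjusted p = 0.0461), without a filter (0.0488) and in 3 fits with a library left out. DACH1 (0.15 ± 0.05) and IGF2BP2 (0.21 ± 0.05) stayed under the fold limit.

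With both agents, 7 of 9 members fell and 0 rose past the fold limit, where 30.9% of all genes fell and 31.2% rose. SENP6 was lower than in the controls as well but under the fold limit (-0.30 ± 0.05, edgeR adjusted p = 6.18e-07). LAMP5 was lower with both agents than with either alone, and had 281 and 295 CPM with both, 524 and 526 CPM with VTP50469, 607 and 621 CPM with OTX015, and 901 and 893 CPM in the controls. The 4 groups did not overlap, and the log2 fold change with both agents was -1.64 ± 0.04 against control, -0.87 ± 0.04 against VTP50469 and -1.09 ± 0.04 against OTX015. SATB1, which rose with OTX015 alone, had 150 and 144 CPM with both agents, a level that overlapped the 148 and 142 CPM with VTP50469 alone (0.02 ± 0.04, 95% interval -0.07 to 0.11). IGF2BP2 with both agents averaged 99.6 ± 0.55 CPM (SD, n = 2), between its levels with VTP50469 and in the controls (-0.51 ± 0.05 against control).

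Adding OTX015 to VTP50469 left 4 of the genes lowered by VTP50469 higher than with VTP50469 alone, namely CPEB2, ZNF521, DACH1 and TMEM255A. In all, 4 of 9 members were higher and 2 lower with both agents than with VTP50469, where 27.9% of all genes were higher and 29% lower. CPEB2 had 22.5 and 18.6 CPM with both agents, 6.12 and 5.33 CPM with VTP50469 alone, and 19.5 and 20.8 CPM in the controls. It thus overlapped the controls (0.03 ± 0.10, 95% interval -0.16 to 0.22) and lay 3.58-fold above VTP50469 alone (log2 1.84 ± 0.12, edgeR adjusted p = 6.26e-22). ZNF521 had 44.6 and 44.9 CPM with both agents and DACH1 46.3 and 46.2 CPM, each above its level with VTP50469 (0.94 ± 0.07 and 0.82 ± 0.06) and below its level in the controls (-1.10 ± 0.06 and -1.49 ± 0.05). TMEM255A had 33 and 26 counts with both agents, against 20 and 9 with VTP50469 alone (1.19 ± 0.35). This call was lost without VTP50469 replicate 2 (0.70, edgeR adjusted p = 0.115), and the value was 1.90 without VTP50469 replicate 1. Lower than with VTP50469 were LAMP5 and TCF4. The level of TCF4 was 6.17 and 5.52 CPM with both agents, against 13.4 and 11.4 CPM with VTP50469 (-1.09 ± 0.13).

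Adding VTP50469 to OTX015 lowered 7 of 9 members and raised 1, where 16.5% of all genes fell and 18.4% rose. The falls ran from -1.65 ± 0.05 for DACH1 and -1.45 ± 0.04 for SATB1 to -0.53 ± 0.09 for CPEB2. SENP6 was the exception, with 96.4 and 109 CPM with both agents, against 82.5 and 72.5 CPM with OTX015 (0.41 ± 0.06). The SENP6 difference dropped under the fold limit without OTX015 replicate 2 or without replicate 2 of the combination (0.31 in both cases). TCF4 did not pass (-0.16 ± 0.14, 95% interval -0.45 to 0.13).

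The departure from additivity was tested as the effect of VTP50469 in the presence of OTX015 minus its effect without it, on the log2 scale. It passed for 6 of 9 members, 5 positive and 1 negative, where 11.5% and 12.7% of all genes did. TMEM255A had the largest value (1.61 ± 0.40, edgeR adjusted p = 0.000952), followed by CPEB2 (1.28 ± 0.15), ZNF521 (1.02 ± 0.09), SENP6 (0.89 ± 0.08) and DACH1 (0.66 ± 0.08). For these genes the value with both agents was less negative than the sum of the single changes. SENP6, for example, was at -0.30 with both agents against a sum of -1.19. SATB1 was the gene with a negative value (-0.52 ± 0.06), at -0.91 with both agents against a sum of -0.38. LAMP5 (-0.32 ± 0.05, edgeR adjusted p = 1.35e-06) lay just under the fold limit. IGF2BP2 (-0.03, 95% interval -0.16 to 0.10) and TCF4 (-0.27, 95% interval -0.64 to 0.09) did not pass.

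**Figure D3:**
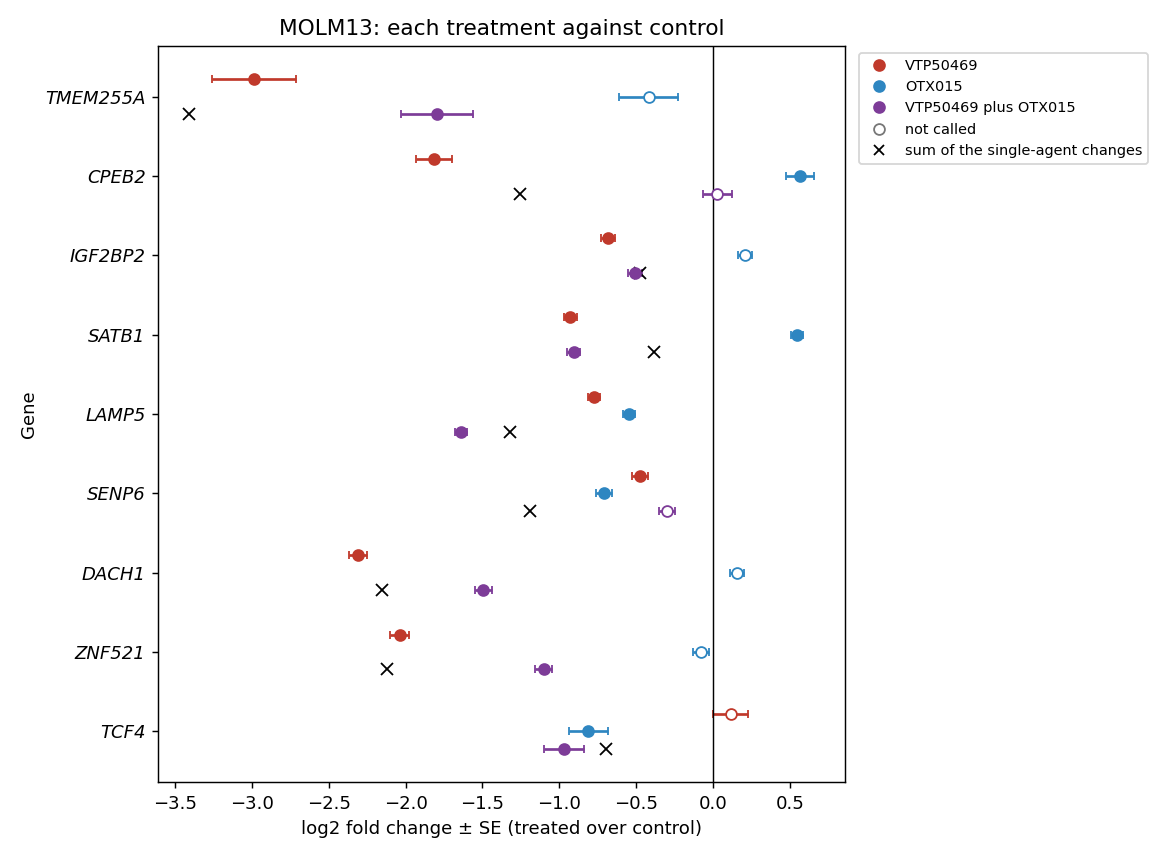
Log2 fold change (± SE) of 9 genes in MOLM13 cells with VTP50469, OTX015 or both, against control, with the sum of the single-agent changes as a cross. Filled points passed the test and open points did not. The combination lies to the right of the cross for TMEM255A, CPEB2, SENP6, DACH1 and ZNF521. It lies to the left for SATB1, for LAMP5, whose difference was just under the fold limit, and for TCF4, whose difference did not pass.

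Other MLL fusion targets, listed for comparison, gave the following counts with VTP50469. Of 9 HOX, TALE and MEF2 genes, 5 fell and 0 rose in MOLM13 (median log2 fold change -0.51), 4 of 5 tested fell in MV4-11 (-1.69), and 2 fell and 4 rose in OCI-AML3 (0.09). Of 12 further targets, among them FLT3, CDK6 and MYB, 6 of 11 tested fell in MOLM13, 9 of 11 in MV4-11 and 4 of 11 in OCI-AML3, while 0, 0 and 1 rose in these lines. Of all tested genes, 5.24% fell and 8.06% rose in MOLM13, 9.34% fell and 11.4% rose in MV4-11, and 4.53% fell and 8.58% rose in OCI-AML3. With OTX015 added to VTP50469, 8 of the 9 HOX, TALE and MEF2 genes were higher and 0 lower than with VTP50469 alone. Of 11 further targets, 6 were higher and 1 lower in this comparison, where 27.9% of all genes were higher and 29% lower.

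Over the 8 group means, the level of CPEB2 followed that of CLK3 (r = 0.91), MEIS1 (0.91) and JMJD1C-AS1 (0.90) most closely among 14702 genes, and that of IGF2BP2 followed NDUFAF3 (0.95), SATB1 (0.92) and GTF2E1 (0.91). The closest genes were PRKRA (0.97) for SATB1, RHEB (0.93) for TMEM255A, DDX27 (0.98) for LAMP5, CDC23 (0.996) for TCF4 and NRG4 (0.86) for SENP6. These are descriptions over 8 points that share libraries within a group and 3 cell backgrounds. Among the 7 members tested in all 3 lines, r was 0.92 between SATB1 and IGF2BP2 and 0.86 between SATB1 and TMEM255A, while LAMP5 and TCF4 had -0.23.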

How the data were processed

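RNA-seq of total RNA from 18 libraries was deposited by the authors as 1 table of raw counts per Ensembl gene ID, not normalized. The labels name STAR and hg38, the study's methods name TopHat2, and no counter, annotation or strand setting is given in the sources used here. Symbols were matched for 55603 of 58037 IDs, and the 2434 without one held 0.156% of counts. Each line was fitted alone with edgeR 4.0.16 (R 4.3.3; filterByExpr, TMM, group means, quasi-likelihood) and differences between lines in a fit of all 18 libraries. Benjamini-Hochberg adjustment ran over all genes tested. Intervals are 95%, and counting bounds use a floor of 3 counts (0.0502 to 0.155 CPM per library). Scripts were tested on simulated counts with known changes. Alternatives were other scaling, no filter, DESeq2 1.42.0, limma 3.58.1 (voom), no fold limit, a replicate block, a single fit and leaving out each library. The 10 members and the lists set beside them were chosen with earlier results of these data known. All members are named, and from each list at most 5 called genes per comparison. Overlapping genes were named for their position. Likeness is Pearson's r of log2(CPM + 0.1) over group means, among genes with at least 1 CPM in a group. Exon lengths for levels per kb came from merged GENCODE exons, lifted to an earlier human genome build than that of the positions. Counts over 1 of the lists are not reported here.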

Additional observations from a re-analysis of the deposited data

Results flagged for a closer look

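In MOLM13 the effect of VTP50469 differed with and without OTX015 for 6 of 9 tested genes, by the edgeR test of the difference itself, where 11.5% of all genes had a positive and 12.7% a negative difference. The differences of log2 fold changes were 1.609 for TMEM255A, 1.281 for CPEB2, 1.019 for ZNF521, 0.886 for SENP6, 0.661 for DACH1 and -0.523 for SATB1.

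The response to VTP50469 differed between lines for SATB1, IGF2BP2 and, less firmly, SENP6. The SENP6 call was lost without scaling factors (0.475, edgeR adjusted p = 0.055) and in 6 of 10 fits with a library left out. DACH1 and, with under 5 counts on average in OCI-AML3, ZNF521 were called too, but genes near 0 there could not show a fall. For MV4-11 minus MOLM13, where the doses differ, the differences were -0.96 for IGF2BP2 and -0.695 for SATB1, 2 of 9 members beside 20.6% of all genes. For OCI-AML3 minus MOLM13 they were 2.639 for DACH1, whose counts in OCI-AML3 are near 0, 0.495 for SENP6 and -0.443 for IGF2BP2, beside 4.1% of all genes. For OCI-AML3 minus MV4-11, where the doses differ as well, they were 0.972 for SATB1 and 0.517 for IGF2BP2, 2 of 9 members beside 23.8% of all genes. The member counts against MV4-11 are thus near the share of all genes.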

How the results depend on the processing

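Of the differences of single members recomputed under the alternatives, 1586 kept their direction and side of the threshold, 40 passed where the reported one did not, 14 no longer passed and 24 changed sign. Counts of genes are not in this tally and were judged by a change beyond 1.5 times. The members called differently between MV4-11 and MOLM13 numbered 2, against 4 with limma-voom and 2 to 5 with each library left out, and between OCI-AML3 and MV4-11 2, against 2 to 6. Changes of sign concerned differences that had not passed. Without scaling factors TCF4 and SENP6 in OCI-AML3 with VTP50469 were at 0.027 and 0.045, and CPEB2 between MOLM13 and OCI-AML3 controls at -0.039. Without a filter SENP6 in OCI-AML3 was at 0.003 and CPEB2 with both agents against control at -0.007. With limma-voom DACH1, TCF4 and SENP6 in OCI-AML3 were at -0.016, 0.002 and 0.043, and in a fit of all libraries the IGF2BP2 interaction was at 0.033. With each library left out, VTP50469 against control ranged from -0.008 to 0.221 for TCF4 in MOLM13 and, in OCI-AML3, from -0.082 to 0.007 for TCF4, from -0.046 to 0.024 for SENP6 and from -0.109 to 0.609 for DACH1. Both agents gave -0.109 to 0.158 for CPEB2 against control and -0.011 to 0.055 for SATB1 against VTP50469. OCI-AML3 minus MOLM13 gave -0.222 to 0.012 for TCF4 and -0.038 to 1.169 for TMEM255A, while CPEB2 gave -0.108 to 0.666 for MV4-11 minus MOLM13 and -0.066 to 0.723 for OCI-AML3 minus MV4-11. The cause was not tested.

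Over all genes, 4691 passed in MOLM13 with VTP50469 without a fold limit, against 1910, and 6338 in OCI-AML3, against 2178. In MV4-11 5934 passed in a fit of all libraries, against 3208, and 1637 to 3340 with each library left out. The OCI-AML3 minus MOLM13 count of 721 became 462 to 684. Higher calls made up 60.6% in MOLM13 with VTP50469, against 74.4% without scaling factors, 49.5% without a filter and 47.6% in a fit of all libraries, and 65.5% in OCI-AML3, against 76.5% without scaling factors and 50.8% with limma-voom. For the interaction the share was 47.6%, against 58.8% in a fit of all libraries. Without scaling factors the median of all genes was 0.115 with both agents against control, -0.243 between MOLM13 and OCI-AML3 controls and -0.206 between MOLM13 and MV4-11 controls.

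Libraries of the same replicate number were at most weakly alike in their deviations from the group means. Their r was -0.128 to 0.051 in MOLM13, 0.134 in MV4-11 and -0.004 to 0.161 in OCI-AML3. A replicate block changed the sign or the side of the threshold of none of 91 differences of single members, comparisons with a group under 5 counts on average left out. With the block 8, 5 and 5 members passed with VTP50469 in MOLM13, MV4-11 and OCI-AML3, as without it. Over all genes 1847, 4029 and 2242 passed with the block, against 1910, 3208 and 2178 without it. Between MV4-11 and MOLM13 3 members differed with the block, against 2, the added one being a gene near 0 counts in MV4-11. A crossed block for both agents against OTX015, chosen after seeing the data, gave 8 members and 5057 genes.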
